A study of Mus musculus with 24 samples.

Results

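The genes described here make, sense and move bile acids in the liver, and there are 10 of them among the 37074 gene names that the array carries outside its controls. They are the synthesis enzymes Cyp7a1, Cyp8b1, Cyp27a1 and Cyp7b1, the nuclear receptors Nr0b2 and Nr1h4, the bile acid transporters Slc10a1 and Abcb11, and the sterol transporter genes Abcg5 and Abcg8. Each gene was taken by its name in the files and read from its probe with the highest mean signal over 24 arrays. For 4 genes (Cyp7a1, Cyp7b1, Nr1h4 and Slc10a1) the array holds a further probe, which served as a check. All 14 probes passed the filter on dim signals.

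The livers came from male mice of 12 weeks that were fed ad libitum or fasted for 24 h, and all were killed at Zeitgeber time 16, in the dark phase of the light cycle. LKO mice carry floxed alleles of Pik3ca and 1 allele of a Cre recombinase driven by the albumin promoter, a promoter active in hepatocytes, for deletion of exons 18 and 19 of Pik3ca. Deletion in the other cells of the liver was not examined here. LWT mice are their littermates with the same floxed alleles and no Cre, so the Cre itself differs between genotypes along with Pik3ca. The 4 groups, LWT_Fed, LWT_Fasted, LKO_Fed and LKO_Fasted, hold 6 mice each with 1 array per mouse.

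Bile acids are made from cholesterol in hepatocytes. Cyp7a1, cholesterol 7α-hydroxylase, catalyses the rate-limiting step of the classical pathway, and Cyp8b1, the sterol 12α-hydroxylase, directs that pathway towards cholic acid, whereas Cyp27a1 and Cyp7b1 belong to the alternative pathway. Bile acids bind the nuclear receptor FXR (Nr1h4), which induces the repressor SHP (Nr0b2) and the canalicular export pump BSEP (Abcb11). NTCP (Slc10a1) takes bile acids up from portal blood, and ABCG5 and ABCG8 form the pump that exports cholesterol into bile.

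On single arrays, 54.7% to 63.0% of spots rose well above background, the median spot signal ranged from 69 to 88.5, and no spot was saturated. Each of the 3 slides carried 2 arrays of every group. The array weights from limma were below 0.5 for LWT_Fed replicate 3, LWT_Fasted replicate 2 and LKO_Fasted replicate 4, at 0.317, 0.442 and 0.356. The probe of Pik3ca read 11.71 to 12.25 in LWT_Fed and 12.30 to 13.02 in LKO_Fed on the normalized log2 scale, and it was higher in arrays labelled LKO in fed mice (log2 fold change 0.58, limma adjusted p = 0.00156) but not in fasted mice (-0.02, limma adjusted p = 0.931). Its place relative to the deleted exons was not examined, so it does not check the labels, and differences between genotypes are stated between arrays labelled LKO and LWT. Markers of hepatocytes (Alb, Ttr, Apoa1, Tat, Serpina1a and Cps1) summed to a log2 level of 20.48 to 20.66 over all arrays. The sum was lowest in LKO_Fasted, at 20.48 to 20.57 with a median of 20.50, against medians of 20.59 to 20.61 in the other groups. Ttr of this list was lower in arrays labelled LKO (log2 difference -0.21 in fed and -0.41 in fasted mice, limma adjusted p = 0.00732 and 2.2e-05) and fell on fasting in both genotypes. In fed mice 1 of the 6 markers was higher in LKO and 1 lower, against 8.72% and 7.48% of all genes tested. In fasted mice none was higher and 1 was lower, against 9.79% and 10.3%.

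Levels below are quantile-normalized log2 signals of the median spot intensity, given as the lowest, median and highest of 6 arrays. Levels are compared between groups for 1 probe, since signals of different probes have no common scale. A log2 fold change comes from a limma model with array weights and slide, and passes at a Benjamini-Hochberg adjusted p of at most 0.05 over 32197 probes. In bulk liver RNA, fewer cells of a type and less RNA per cell cannot be told apart.

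Fasting changed 6 of the 10 genes in LWT mice. Cyp8b1, Abcg5 and Abcg8 rose, and Cyp7a1, Nr0b2 and Abcb11 fell. Over the 21365 genes tested, 19.4% were higher and 21.3% were lower at the same threshold. All 6 changes exceeded 1.5-fold, and the median absolute log2 fold change was 0.75 for the 10 genes against 0.17 for all genes tested. In LKO mice fasting also changed 6 genes, with Cyp8b1 and Abcg8 higher and Cyp7a1, Cyp27a1, Nr0b2 and Abcb11 lower, against 19.6% of all genes higher and 21.7% lower. Of these 6 changes, 4 exceeded 1.5-fold, and the median absolute log2 fold change was 0.45 against 0.19.

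**Figure D1:**
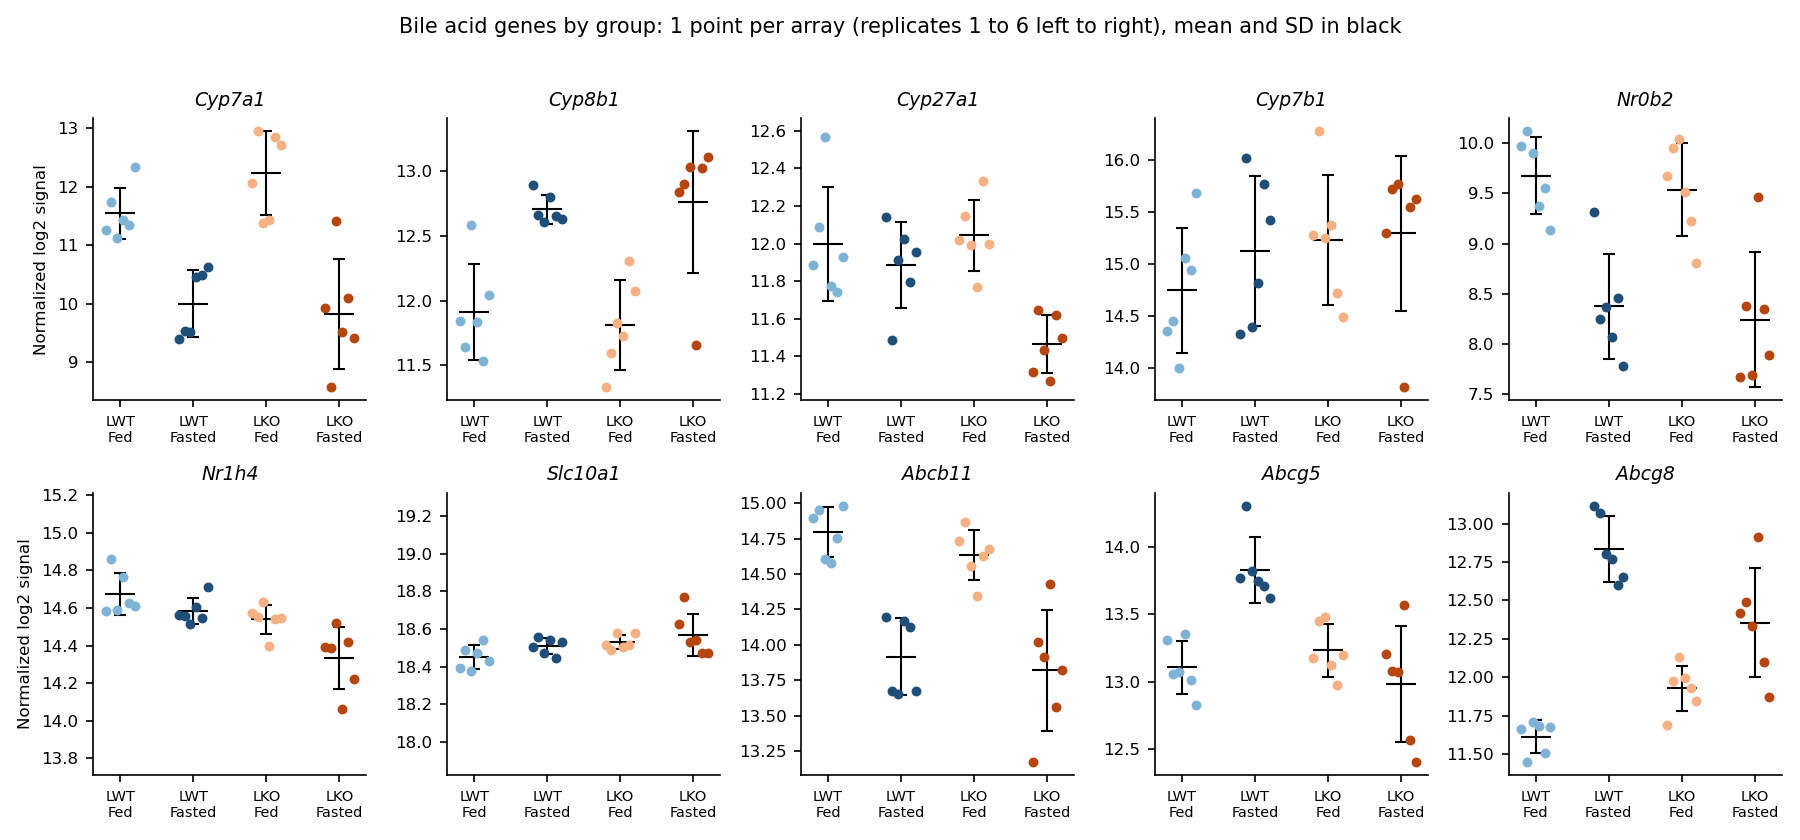
Normalized log2 signal (vertical axis, a separate range for each gene) of the 10 genes in LWT_Fed, LWT_Fasted, LKO_Fed and LKO_Fasted livers, with 1 point per array, 6 arrays per group, and the mean and SD in black. Cyp7a1, Nr0b2 and Abcb11 lie lower and Cyp8b1 lies higher in the fasted groups of both genotypes, whereas the rise of Abcg5 on fasting is seen in LWT and not in LKO.

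Cyp7a1 fell on fasting in both genotypes. Its probe lies on chromosome 4 at 6193456 to 6193515 of mm9. The signal was 11.13, 11.40 and 12.34 (lowest, median and highest of 6) in LWT_Fed and 9.41, 9.997 and 10.62 in LWT_Fasted. The groups did not overlap, and the log2 fold change was -1.41 (SE 0.387), a 2.66-fold decrease with an adjusted p of 0.00555 in limma. In LKO_Fed the signal was 11.39, 12.40 and 12.96, and in LKO_Fasted 8.57, 9.73 and 11.42. Of the LKO_Fasted arrays, 5 lay below all LKO_Fed arrays, and replicate 3, at 11.42, lay just above the lowest fed array. The log2 fold change in LKO was -2.10 (SE 0.422, limma adjusted p = 0.000356), a 4.30-fold decrease.

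The fasting changes of Cyp7a1 in the 2 genotypes differed by -0.69, with a 95% confidence interval of -1.88 to 0.50 and a limma adjusted p of 0.511. Fed LKO arrays were higher than fed LWT arrays by 0.54 with an interval of -0.27 to 1.36, which did not pass either (limma adjusted p = 0.384). Cyp7a1 varied more between mice of a group than most of the other genes, with an SD of 0.44 to 0.95, so these intervals are wide. The other probe of Cyp7a1 was dim. It was well above background on 5 of 6 arrays in each fed group and on none in either fasted group, so that it passed the filter only through the fed groups and adds no independent support. As a bound, the mean of the fed arrays over the lowest signal well above background, fed arrays were at least 1.18-fold higher in LWT and at least 1.32-fold higher in LKO.

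Cyp8b1 moved the opposite way. Its probe lies on chromosome 9 at 121824595 to 121824654 of mm9. The signal was 11.53, 11.84 and 12.59 in LWT_Fed and 12.61, 12.66 and 12.89 in LWT_Fasted, so that all 6 fasted arrays lay above all 6 fed arrays. The log2 fold change was 0.90 (SE 0.159, limma adjusted p = 9.28e-05), a 1.87-fold increase. In LKO the signal rose from 11.33, 11.77 and 12.31 to 11.66, 12.97 and 13.11, by 1.14 (SE 0.173, limma adjusted p = 1.56e-05). LKO_Fasted replicate 4, at 11.66, was the only array of its group within the fed range, and the change was 1.23 without it. Neither genotype difference passed, with -0.04 in fed and 0.19 in fasted mice, and the difference between the fasting changes was 0.23 with an interval of -0.25 to 0.72 (limma adjusted p = 0.60). The first enzyme of the classical pathway and its 12α-hydroxylase thus moved in opposite directions on fasting in both genotypes.

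Cyp27a1, the mitochondrial sterol 27-hydroxylase, differed between genotypes in its response. Its probe lies on chromosome 1 at 74782203 to 74782262 of mm9. In LWT the signal was 11.74, 11.91 and 12.56 in fed and 11.49, 11.94 and 12.14 in fasted mice, a change of 0.04 with an interval of -0.16 to 0.24. In LKO it went from 11.77, 12.01 and 12.33 in fed mice to 11.27, 11.47 and 11.65 in fasted mice. Those 2 groups did not overlap, and the log2 fold change was -0.55 (SE 0.106, limma adjusted p = 0.000257), a 1.46-fold decrease. The fasting changes differed by -0.59 (SE 0.144, limma adjusted p = 0.0169). That difference did not pass without array weights (-0.47, limma adjusted p = 0.117), without the filter on dim probes (-0.56, adjusted p = 0.0672) or without LWT_Fed replicate 5 (-0.53, adjusted p = 0.0571).

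Cyp7b1, the oxysterol 7α-hydroxylase, passed in none of the 5 comparisons. Its brightest probe lies on chromosome 3 at 17972286 to 17972345 of mm9, and its log2 fold changes ran from 0.09 to 0.47. Mice of the same group spread widely, from 13.999 to 15.68 in LWT_Fed, 14.33 to 16.02 in LWT_Fasted, 14.49 to 16.27 in LKO_Fed and 13.82 to 15.76 in LKO_Fasted. The other probe followed the first across mice, with r = 0.989 over 24 arrays after the group means were taken off, so both probes read the same spread. The confidence intervals were correspondingly wide and reached from -0.18 to 1.13 for the genotype difference in fasted mice.

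Of the receptors, Nr0b2 fell on fasting and Nr1h4 hardly moved. The probe of Nr0b2 lies on chromosome 4 at 133109694 to 133109753 of mm9. Its signal was 9.14, 9.73 and 10.12 in LWT_Fed and 7.78, 8.31 and 9.32 in LWT_Fasted, with 5 of 6 fasted arrays below all fed arrays. The log2 fold change was -1.31 (SE 0.251, limma adjusted p = 0.000225), a 2.48-fold decrease. In LKO the signal was 8.80, 9.59 and 10.04 in fed and 7.67, 8.12 and 9.47 in fasted mice. Again 5 of 6 fasted arrays lay below all fed arrays, and the exception was LKO_Fasted replicate 4, at 9.47. The change in LKO was -1.55 (SE 0.273, limma adjusted p = 8.97e-05), a 2.93-fold decrease, and the fasting changes differed by -0.24 with an interval of -1.01 to 0.53. SHP represses Cyp7a1 and Cyp8b1, and its messenger fell together with that of Cyp7a1 while that of Cyp8b1 rose.

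Nr1h4 was read at 14.59, 14.62 and 14.86 in LWT_Fed, 14.51, 14.56 and 14.71 in LWT_Fasted, 14.40, 14.55 and 14.63 in LKO_Fed and 14.06, 14.39 and 14.52 in LKO_Fasted, by a probe on chromosome 10 at 88917222 to 88917281 of mm9. Among fasted mice 5 of 6 LKO arrays lay below all LWT arrays, and the log2 difference was -0.22 (SE 0.072, limma adjusted p = 0.0327), a 1.17-fold decrease. Its call was lost without any of LKO_Fasted replicates 1 and 6, LWT_Fasted replicates 4 and 6 or LWT_Fed replicate 5 (largest adjusted p = 0.101). It was also lost with the median signal scaled to the 75th percentile (limma adjusted p = 0.0521), without the filter on dim probes (0.0577), with only the groups compared (0.0964) and without LKO_Fasted replicates 1 and 2 (0.0516). The other probe, on chromosome 10 at 88960160 to 88960219, gave -0.05 with an interval of -0.30 to 0.19 and did not pass. No fasting change of Nr1h4 passed, with -0.08 in LWT and -0.17 in LKO (limma adjusted p = 0.0625). The change in LKO passed under 5 other settings, with -0.21 without array weights (limma adjusted p = 0.0192) the largest of them, and without LKO_Fasted replicate 3, LKO_Fed replicate 4 or LWT_Fed replicate 1 (-0.21, -0.21 and -0.18).

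**Figure D2:**
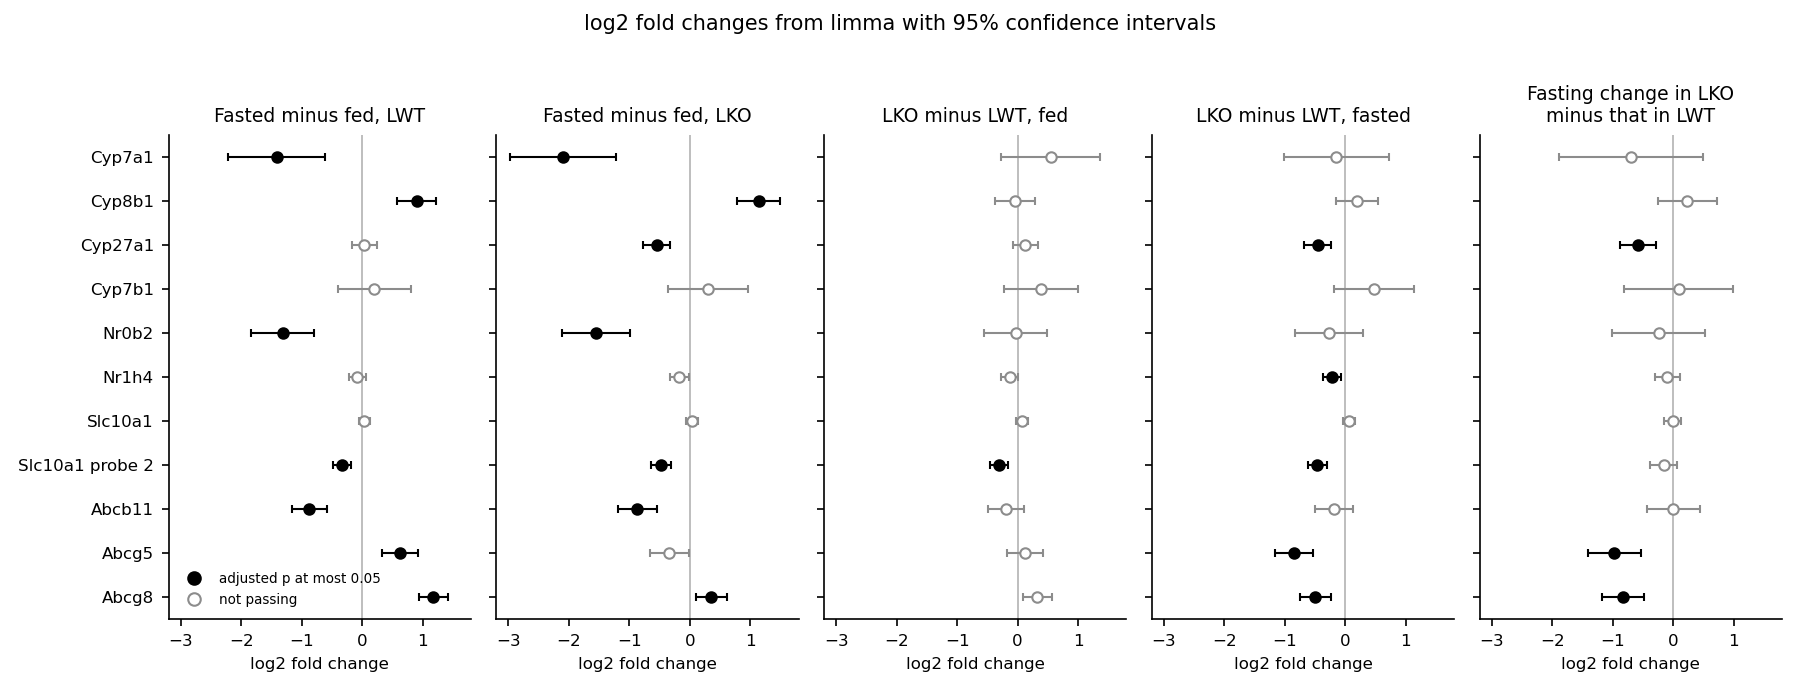
The log2 fold changes from limma (horizontal axes) of the 10 genes and of the other probe of Slc10a1 in 5 comparisons, with 95% confidence intervals. Filled points have an adjusted p of at most 0.05, and Cyp27a1, Abcg5 and Abcg8 are the 3 genes with filled points in the difference between fasting changes.

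Abcb11, the bile salt export pump, fell on fasting in both genotypes. Its probe lies on chromosome 2 at 69076390 to 69076449 of mm9. The signal went from 14.58, 14.83 and 14.98 in LWT_Fed to 13.66, 13.90 and 14.20 in LWT_Fasted, with no overlap. It went from 14.35, 14.65 and 14.87 in LKO_Fed to 13.17, 13.87 and 14.43 in LKO_Fasted, where replicate 4 alone, at 14.43, reached the fed range. The log2 fold change was -0.87 in LWT (limma SE 0.143 and adjusted p = 4.19e-05) and the same -0.87 in LKO mice (SE 0.155, adjusted p = 0.000105), each a 1.83-fold decrease. The difference between them was 0.0005 with an interval of -0.44 to 0.44, so a difference of up to 0.44 either way remains within the error.

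The sequence before the start of Abcb11 is shown because this gene is a known target of FXR, which binds an inverted repeat of the half-site AGGTCA. The 250 bases lie at chr2:69342617-69342866 on the minus strand of GRCm38.p6, from RefSeq, and the capitals mark a match to AGGTCANTGACCT with 1 letter changed, T4C counted from 1 at the 5′ end of the motif.
Abcb11: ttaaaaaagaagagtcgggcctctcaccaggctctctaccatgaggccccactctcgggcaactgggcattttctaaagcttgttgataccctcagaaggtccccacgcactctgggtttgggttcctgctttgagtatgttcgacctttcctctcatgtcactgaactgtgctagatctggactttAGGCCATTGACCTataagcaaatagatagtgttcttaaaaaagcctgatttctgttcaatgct
The match runs from base -63 to base -51 before the start, on either strand since the motif is its own reverse complement. With up to 1 letter changed, the motif occurs in 27 of 32851 promoter windows of 300 bases, or 0.0822%, and among the 10 windows of 8 of the genes it was in that of Abcb11 alone. This search was added after the window had been seen, and no binding was measured.

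RefSeq windows of 250 bases before to 50 after the start were given for 8 of the 10 genes, and not for Cyp7a1 and Cyp7b1. The half-site AGGTCA, on either strand, was found before the starts of Nr1h4, Slc10a1 and Abcb11, and it occurs in 16.3% of all windows. Neither the longer AAGGTCA (4.72% of all windows), the forkhead core TGTTTAC (3.65%), the direct repeat AGGTCANAGGTCA (0.0396%) nor the exact inverted repeat AGGTCANTGACCT (0.00913%) was found in any window of these genes.

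Slc10a1, which takes up bile acids on the sinusoidal side, gave different readings from its 2 probes. The brighter probe stood at 18.38 to 18.77 on all 24 arrays, and only 27 of the 56605 probes were brighter. None of its comparisons passed, with log2 fold changes of -0.005 to 0.07. With arrays scaled to the 75th percentile in place of quantiles, genotype in fed mice passed as higher in LKO, at 0.24 for the median signal (limma adjusted p = 0.0144) and 0.27 for the processed signal (adjusted p = 0.0244). Its annotation lists 4 RefSeq transcripts, of Slc10a1, Med16, Spc24 and 4930402H24Rik, and it shares a run of 20 bases with 2 probes named for other genes, Nxnl1 and Sppl2a, which no other probe of these 10 genes does. The first 30 of the 60 bases of each probe are printed because they show what was read.
Slc10a1, brightest probe: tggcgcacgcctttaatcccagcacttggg
Slc10a1, other probe: ccacaacctgcttcatgttgtaactcaaaa
The bright signal thus cannot be assigned to Slc10a1 alone. The probes lie on chromosome 12 at 82056539 to 82056598 and at 82054180 to 82054239 of mm9.

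The other probe of Slc10a1, whose listed transcripts all belong to this gene, was lower in fasted mice and in arrays labelled LKO. It lists 2 RefSeq transcripts, and the Slc10a1 transcript listed for the brighter probe is not among them. Whether the other probe reads all transcripts of the gene was not examined. Its signal was 15.31, 15.56 and 15.73 in LWT_Fed, 15.17, 15.23 and 15.65 in LWT_Fasted, 15.05, 15.30 and 15.37 in LKO_Fed and 14.52, 14.78 and 14.95 in LKO_Fasted. All 6 LKO_Fasted arrays lay below all arrays of the other groups. Its log2 fold change on fasting was -0.33 in LWT (SE 0.073, limma adjusted p = 0.000984) and -0.48 in LKO (SE 0.079, adjusted p = 4.32e-05). The genotype difference was -0.31 in fed mice (SE 0.074, limma adjusted p = 0.00629) and -0.46 in fasted mice (SE 0.078, adjusted p = 0.000271). These are decreases of 1.24- to 1.39-fold, and the fasting changes differed by -0.15 with an interval of -0.37 to 0.07, which did not pass (limma adjusted p = 0.428).

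**Figure D3:**
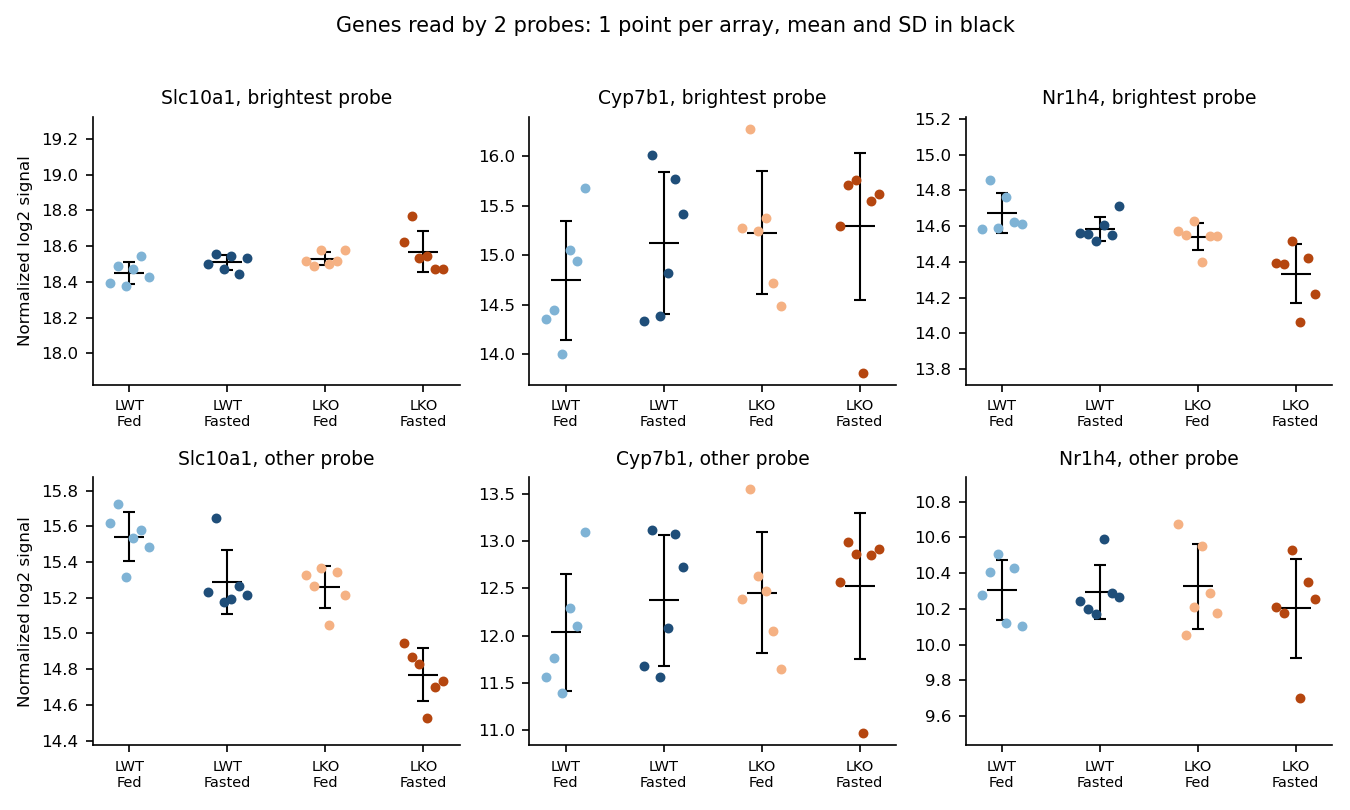
Normalized log2 signal (vertical axes, a separate range for each panel) of both probes of Slc10a1, Cyp7b1 and Nr1h4 by group, with 1 point per array, 6 arrays per group, and the mean and SD in black. The 2 probes of Slc10a1 disagree, with LKO_Fasted at 14.52 to 14.95 by the other probe, whereas those of Cyp7b1 show the same mice high and low.

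Abcg5 and Abcg8 rose on fasting in LWT. In LKO Abcg8 rose less, and Abcg5 did not rise. The probe of Abcg5 lies on chromosome 17 at 85057604 to 85057663 of mm9 and that of Abcg8 at 85099609 to 85099668. The signal of Abcg5 was 12.83, 13.07 and 13.35 in LWT_Fed and 13.62, 13.76 and 14.31 in LWT_Fasted, with no overlap. The log2 fold change was 0.63 (SE 0.142, limma adjusted p = 0.00114), a 1.55-fold increase. In LKO it was 12.97, 13.19 and 13.48 in fed and 12.40, 13.08 and 13.57 in fasted mice, which overlapped, and the change was -0.34 with an interval of -0.66 to -0.02 (limma adjusted p = 0.0831). It passed as a decrease without LKO_Fasted replicate 1 (-0.43, adjusted p = 0.0459) or replicate 4 (-0.39, adjusted p = 0.0437), and was -0.20 without replicate 6 (adjusted p = 0.289) and -0.23 without replicate 5 (adjusted p = 0.261). Within single slides it ranged from -0.50 to 0.004. The fasting changes differed by -0.97 (SE 0.210, limma adjusted p = 0.00746).

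Abcg8 showed the same order of groups among fasted mice. Its signal was 11.45, 11.67 and 11.71 in LWT_Fed and 12.60, 12.78 and 13.12 in LWT_Fasted. All fasted arrays lay above all fed arrays, and the log2 fold change was 1.18 (SE 0.114, limma adjusted p = 4.18e-08), a 2.26-fold increase. In LKO it went from 11.69, 11.95 and 12.13 to 11.87, 12.38 and 12.92, with 4 of 6 fasted arrays above all fed arrays. That change of 0.36 (SE 0.124, limma adjusted p = 0.0258) was a 1.28-fold increase, and it did not pass without any of LKO_Fasted replicates 1, 2 and 3 or LKO_Fed replicate 1 (0.29 to 0.33, largest adjusted p = 0.0920), without LKO_Fasted replicates 1 and 2 together (0.25, adjusted p = 0.173) or with only the groups compared (0.37, adjusted p = 0.0548). The fasting changes differed by -0.82 (SE 0.169, limma adjusted p = 0.00514).

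Among fasted mice, Abcg5 was lower in LKO, with a log2 difference of -0.85 (SE 0.153, limma adjusted p = 0.000477), with no overlap between the groups, and so was Abcg8, with -0.50 (SE 0.123, adjusted p = 0.00635), with 5 of 6 LKO arrays below all LWT arrays. Leaving out any 1 array kept both differences between fasting changes past the threshold, at -1.07 to -0.83 for Abcg5 and -0.90 to -0.71 for Abcg8. Within single slides, where no call for these differences passed with 2 arrays a group, the values were -1.14 to -0.86 for Abcg5 and -0.996 to -0.46 for Abcg8.

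**Figure D4:**
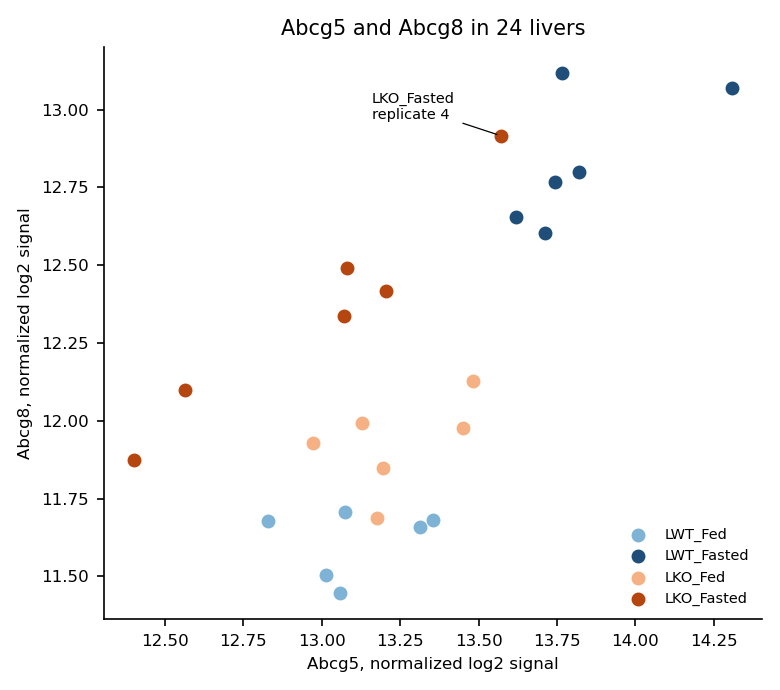
Normalized log2 signal of Abcg5 (horizontal axis) and Abcg8 (vertical axis) with 1 point for each of the 24 livers, coloured by group. The LWT_Fasted livers are high for both genes, the LKO_Fasted livers spread along a line, and LKO_Fasted replicate 4, at 13.57 for Abcg5, lies nearest to LWT_Fasted.

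These genes encode the 2 subunits of 1 transporter and lie next to each other on opposite strands. With group means taken off, their signals went together across the 24 mice, with r = 0.778 (permutation p adjusted over 4 pairs = 0.00132) and Spearman rho of 0.651 (adjusted p = 0.00924). Slide and array weights did not enter these correlations, so a part shared through slide or array quality is not removed. Without LKO_Fasted replicates 4 and 6, the arrays farthest from the median of Abcg5, r was 0.585. Within groups r was 0.22 in LWT_Fed, 0.64 in LWT_Fasted, 0.48 in LKO_Fed and 0.97 in LKO_Fasted. The bases between the start of Abcg5, to the left on the minus strand, and a start of Abcg8, to the right on the plus strand, are printed because both genes can be read from this stretch. RefSeq gives Abcg8 a further start at 84676302, from which the genes do not share it, and which start was used was not measured. They lie at chr17:84683012-84683120 of GRCm38.p6 (RefSeq) and number 109, of which 45.9% are G or C.
Abcg5 to Abcg8: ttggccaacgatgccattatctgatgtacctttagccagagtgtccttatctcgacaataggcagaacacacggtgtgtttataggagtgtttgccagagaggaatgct
No letter is in capitals because none of the 5 motifs searched was found there, which says only that those letters are absent from this window.

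The other pairs examined gave weaker relations. Nr0b2 and Cyp7a1, a repressor and its target, had r = -0.471 within groups (permutation p adjusted over 4 pairs = 0.0699) and rho = -0.491 (adjusted p = 0.0517). Nr0b2 and Cyp8b1 had r = -0.484 (adjusted p = 0.0699), which became -0.304 without LKO_Fasted replicate 4 and LWT_Fasted replicate 1, with rho = -0.375 (adjusted p = 0.117). The groups differed in sign for that pair, with r = 0.02 in LWT_Fed, 0.65 in LWT_Fasted, -0.62 in LKO_Fed and -0.87 in LKO_Fasted. Cyp7a1 and Cyp8b1 had r = 0.142 (adjusted p = 0.560) and rho = 0.102 (adjusted p = 0.647). Neither relation of Nr0b2 nor that of the 2 enzymes passed.

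Between genotypes, none of the 10 genes passed in fed mice, where 8.72% of all genes tested were higher and 7.48% lower in arrays labelled LKO. At an unadjusted p under 0.05 in limma there was 1 gene, Abcg8, which was higher in LKO_Fed by 0.33 with an interval of 0.09 to 0.57 (adjusted p = 0.0596) and 5 of 6 LKO arrays above all LWT arrays. With Slc10a1 read by its other probe the count was 1, that gene, lower in LKO. In fasted mice 4 of the 10 genes were lower in arrays labelled LKO and none was higher, against 10.3% of all genes lower and 9.79% higher. They were Cyp27a1 (-0.46, SE 0.105, limma adjusted p = 0.00359, with 3 of 6 LKO arrays below all LWT arrays), Nr1h4, Abcg5 and Abcg8. Only the difference of Abcg5 exceeded 1.5-fold, and with Slc10a1 by its other probe the count was 5.

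The difference between the fasting changes passed for 3 of 10 genes, Cyp27a1, Abcg5 and Abcg8, all of them lower in LKO, against 3.61% of all genes tested on that side and 3.94% on the other. All 3 exceeded 1.5-fold. For Cyp7a1, Cyp8b1, Cyp7b1, Nr0b2, Nr1h4, Slc10a1 and Abcb11 it did not pass, which does not show that their responses were the same. Without the 3 arrays of low weight the numbers passing were 6 for fasting in LWT, 7 for fasting in LKO, 1 for genotype in fed mice, 4 for genotype in fasted mice and 3 for the difference between fasting changes.

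Other genes of bile acid metabolism, from a list of 54, were tested for 48. In LWT 15 of them rose on fasting and 10 fell, against 19.4% and 21.3% of all genes tested, and in LKO 13 rose and 15 fell, against 19.6% and 21.7%. The 10 of 48 that fell in LWT are near the share over all genes. Their median log2 fold change was 0.004 in LWT and 0.05 in LKO, against -0.007 and -0.02 for all genes tested. Genotype changed 8 in fed mice, 2 higher and 6 lower in LKO, which together are near the 8.72% and 7.48% of all genes, and 22 in fasted mice, 6 higher and 16 lower, against 9.79% and 10.3%. The fasting changes differed for 11, with 6 higher and 5 lower in LKO, against 3.94% and 3.61% of all genes. These counts, like the shares over all genes, can include a gene that the filter on dim signals kept only through a group where it was high.

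Among the genes of synthesis and conjugation 5 of 14 rose and 4 fell on fasting in LWT, and 5 rose and 5 fell in LKO, where 19.4% to 19.6% of all genes rose and 21.3% to 21.7% fell. Cyp2c70, which makes the muricholic acids of mice, fell most, from 16.40 ± 0.54 to 14.19 ± 0.47 in LWT (SD, n = 6) and from 16.53 ± 0.56 to 13.30 ± 0.70 in LKO. Its log2 fold change was -2.10 (SE 0.296, limma adjusted p = 6.67e-06) in LWT and -3.36 (SE 0.322, adjusted p = 2.63e-08) in LKO, and the difference of -1.26 did not pass (adjusted p = 0.0857). In fasted mice it was lower in LKO, with a log2 difference of -1.09 (SE 0.319, limma adjusted p = 0.0183), which did not pass without array weights (-0.89) or without LKO_Fasted replicate 1 or LWT_Fasted replicates 5 or 6 (-0.99 to -0.91). Akr1d1, the steroid 5β-reductase that follows the hydroxylases, fell by 0.55 on the log2 scale in LWT (limma adjusted p = 0.00064) and by 1.45 in LKO (adjusted p = 6.08e-09), and these changes differed by -0.91 (SE 0.171, adjusted p = 0.0028).

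Acot8, a peroxisomal thioesterase, rose by 1.39 in LKO (SE 0.0905, limma adjusted p = 9.74e-11) and by 0.86 in LWT (adjusted p = 4.04e-08), and these changes differed by 0.52 (adjusted p = 0.0125), which did not pass without array weights (0.41). Cyp39a1, another oxysterol 7α-hydroxylase, was higher in LKO_Fed than in LWT_Fed by 0.68 (SE 0.207, limma adjusted p = 0.0299), and by 0.27 in fasted mice, which did not pass. The call in fed mice was lost without any of LKO_Fed replicates 1, 2 and 4 or LWT_Fed replicates 4, 5 and 6 (0.62 to 0.72), with the processed signal or without the filter on dim probes.

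Of the regulators 6 of 13 rose and 1 fell on fasting in LWT, and 7 rose and 1 fell in LKO, beside the same 19.4% to 19.6% and 21.3% to 21.7% of all genes. Prox1, a corepressor of Cyp7a1 transcription, rose from 11.11 ± 0.28 to 12.29 ± 0.10 in LWT and from 11.14 ± 0.31 to 12.42 ± 0.25 in LKO (log2 fold changes 1.17 and 1.27, limma adjusted p = 8.38e-07 and 6.7e-07). Fgfr4, the receptor through which intestinal FGF15 represses bile acid synthesis, fell by 0.44 in LWT (limma adjusted p = 0.00541) and by 0.68 in LKO (adjusted p = 0.00022). Its coreceptor Klb went the other way, rising by 0.22 in LWT (limma adjusted p = 0.0325) and by 0.62 in LKO (adjusted p = 5.41e-06), which differed by 0.40 (adjusted p = 0.0421). The call for LWT and that for the difference were lost under several settings and without many of the single arrays, and the value in LWT was 0.14 without array weights.

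Hnf4a, an activator of Cyp7a1 and Cyp8b1, rose by 0.57 in LWT (limma adjusted p = 9.61e-07) and by 0.28 in LKO (adjusted p = 0.00431). In fasted mice it was lower in arrays labelled LKO (log2 difference -0.24, limma adjusted p = 0.0271; lost under 3 settings and without any of LKO_Fasted replicates 5 and 6 or LWT_Fasted replicates 4 and 5), while the difference between its fasting changes, -0.29, did not pass (adjusted p = 0.0934). LRH-1 (Nr5a2) and LXRα (Nr1h3), activators of Cyp7a1 and of Abcg5 and Abcg8, passed in none of the 5 comparisons, with log2 fold changes of -0.16 to 0.21 for Nr5a2 and -0.10 to 0.01 for Nr1h3. The other LXR gene of the list, Nr1h2 (LXRβ), named after its values were seen, rose by 0.37 on fasting in LKO (limma adjusted p = 4.4e-06), was higher in LKO by 0.24 in fasted mice (adjusted p = 0.0023), and had fasting changes that differed by 0.27 (adjusted p = 0.0205).

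Among transporters 4 of 17 rose and 5 fell on fasting in LWT, and 1 rose and 7 fell in LKO. The numbers in LWT are near the 19.4% and 21.3% of all genes that rose and fell, and those in LKO stand beside 19.6% and 21.7%. Both sets of numbers can include genes that the filter on dim signals kept only through a group where they were high. The phospholipid flippase gene Abcb4, whose product supplies bile with phosphatidylcholine, rose from 14.42 ± 0.16 to 15.66 ± 0.09 in LWT and from 14.33 ± 0.27 to 16.04 ± 0.13 in LKO. Its log2 fold changes were 1.22 (limma adjusted p = 2.74e-10) and 1.798 (adjusted p = 2.11e-12), and they differed by 0.58 (adjusted p = 0.00652), on the side opposite to Abcg5 and Abcg8. The uptake carrier Slco1a4 rose by 0.96 in LWT (limma adjusted p = 0.000199) and fell by 0.56 in LKO (adjusted p = 0.027), a difference of -1.52 (SE 0.269, adjusted p = 0.00156). In fed mice Slco1a4 was higher in LKO by 0.82 (limma adjusted p = 0.00408), and in fasted mice it was lower, at -0.70 (adjusted p = 0.0145). The fall in LKO did not pass with the replicate number as a block (-0.47), without array weights (-0.39), under 3 other settings or without any of LKO_Fasted replicates 3, 5 and 6 and LKO_Fed replicates 3, 5 and 6 (-0.52 to -0.43). The difference in fasted mice did not pass without array weights (-0.46), under 2 other settings or without LKO_Fasted replicate 3 (-0.58), and within slide 1 both turned to 0.34.

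Scarb1, the receptor that takes up HDL cholesterol, changed by 0.11 in LWT, which did not pass, and fell by 0.61 in LKO (limma adjusted p = 6.43e-05), a difference of -0.72 (adjusted p = 0.00373). Slc9a3r1, a scaffold of canalicular transporters, fell by 0.61 in LWT and by 1.32 in LKO, a difference of -0.70 (limma adjusted p = 0.000599). Slco1b2, another uptake carrier, was lower in arrays labelled LKO in fasted mice (log2 difference -0.70, SE 0.125, limma adjusted p = 0.000415). The efflux pump gene Abcb1a was lower in LKO in fed mice (log2 difference -0.41, limma adjusted p = 0.0325) and in fasted mice (-0.58, adjusted p = 0.0040). The call in fed mice was lost under 3 settings and without any of LKO_Fed replicates 1 and 2 or LWT_Fed replicates 1, 2, 4 and 5 (-0.40 to -0.34).

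Slc10a2, the apical bile acid carrier known from ileum and bile duct cells, was lower in arrays labelled LKO, with a log2 difference of -1.59 in fed (SE 0.225, limma adjusted p = 0.000116) and -1.12 in fasted mice (SE 0.239, adjusted p = 0.00215). It also fell on fasting in LWT by 1.03 (adjusted p = 0.000728). Within slide 1 its genotype difference in fasted mice turned to the opposite direction. Some markers of bile duct cells were also lower in LKO. Of the 6 listed (Krt19, Krt7, Epcam, Sox9, Spp1 and Cftr), 3 were lower in LKO in fed mice and 2 in fasted mice, and none was higher, against 7.48% and 10.3% of all genes lower. Both counts include Epcam, which was well above background on all 6 arrays of each LWT group but on 2 LKO_Fed arrays and 1 LKO_Fasted array, and so passed the filter only through the groups where it was high. Their summed log2 level was 11.07 to 11.77 in LWT_Fed, 10.80 to 11.14 in LWT_Fasted, 9.74 to 10.90 in LKO_Fed and 9.13 to 10.27 in LKO_Fasted. On fasting in LWT, Krt19 and Krt7 fell, Sox9 rose (0.55, limma adjusted p = 0.0028) and Epcam, Spp1 and Cftr did not pass. On fasting in LKO, 1 of the 6 markers rose and 2 fell, against 19.6% and 21.7% of all genes. The sum adds linear signals, so brighter probes weigh more in it. Spp1 went from 10.92 ± 0.28 in LWT_Fed to 9.36 ± 0.58 in LKO_Fed (SD, n = 6), and its genotype difference was -1.50 in fed mice (limma adjusted p = 0.000274) and -2.11 in fasted mice (adjusted p = 6.01e-06). Of 4 ileal markers, Fabp6 and Fgf15 were not well above background on any array and only Fabp2 was tested, which was lower in LKO in fed mice (-1.06, limma adjusted p = 1.63e-06) and not in fasted mice. Fabp2 rose on fasting by 1.40 in LKO, which passed, and by 0.22 in LWT, which did not. The difference between these changes, 1.18, passed. None of 5 Kupffer cell, 4 endothelial and 4 stellate cell markers was higher in either genotype comparison, and 1 endothelial marker was lower in LKO in fed mice. The part of bile duct cells in the level of Slc10a2 was not tested.

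None of the 4 sulfation and detoxification genes tested passed for fasting in LWT, and 2 fell in LKO, while 3 were lower in arrays labelled LKO in fasted mice. Over all genes, 21.7% fell on fasting in LKO and 10.3% were lower in LKO in fasted mice. Markers of zonation stood beside these results. Of 5 periportal markers 2 were lower in LKO in fasted mice, among them Hal (-0.88, limma adjusted p = 0.00164), against 10.3% of all genes, and of 5 pericentral markers none differed between genotypes in either feeding state. The part of zonation in the levels of the synthesis enzymes was not tested.

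**Figure D5:**
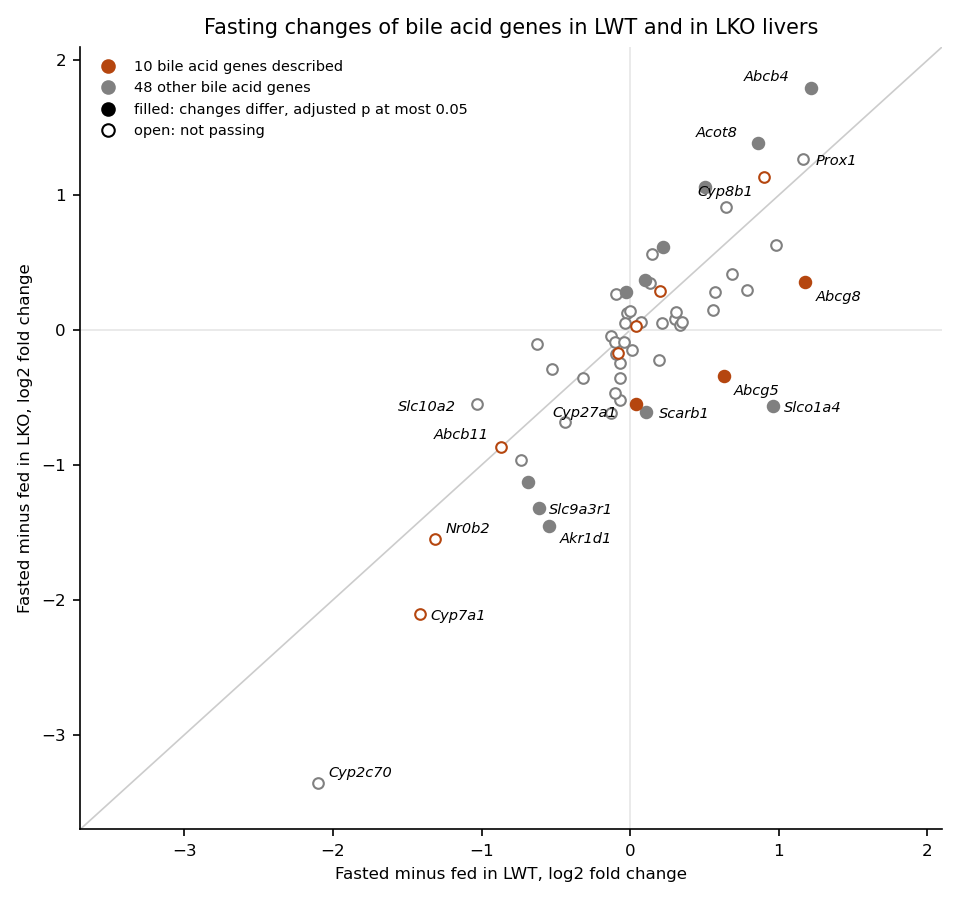
The log2 fold change on fasting in LWT (horizontal axis) against that in LKO (vertical axis) for the 10 genes described (orange) and 48 other bile acid genes (grey), with the line of equal change. Filled points are genes for which the difference between the fasting changes passed, among them Abcg5, Abcg8 and Cyp27a1 below the line and Abcb4 above it.

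The genes whose signals were most like that of Cyp7a1 over the 24 arrays, among 21335 genes with values on every array, were Plcb3 (r = 0.901), Fgf11 (r = 0.892) and a predicted gene (ENSMUST00000119163, r = 0.888). For Cyp8b1 they were the pantothenate kinase gene Pank1 (r = 0.907), the repair gene Xpc (r = 0.904) and Acat1, a mitochondrial thiolase gene (r = 0.903). These values describe the 24 arrays, which share 4 groups, and carry no test.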

How the data were processed

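Liver RNA of 24 mice was measured on 1-colour Agilent arrays of 60-base probes, 1 array per mouse. Per the labels and file headers, the scans were read by the authors with Agilent Feature Extraction 10.10.1.1, and probe positions refer to mm9. The deposited scanner files hold intensities, of which the median signal without background subtraction was used. The deposited series matrix holds log2 values that the authors filtered, corrected for the washing bath and quantile normalized. It was used as an alternative, and its column medians were 8.061 to 8.065.

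A probe was kept if well above background on at least 5 of 6 arrays of a group (32197 of 56605 probes). Log2 median signals were quantile normalized and fitted in limma 3.58.1 (R 4.3.3) with group means, slide in place of the bath, and array weights. Contrasts were taken within genotype, within feeding state and for their interaction, with two-sided p-values adjusted by Benjamini and Hochberg over all probes. Overlap of groups, and the number of arrays beyond the other group, were counted on unweighted signals. The fit was tested on simulated data. The number of arrays limits the precision.

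The 10 genes, the lists of other bile acid genes and of cell markers, and the tests were chosen with earlier results of these data known. Genes of the list were named by the 4 largest changes that passed in each contrast, with Fgfr4, Klb, Nr5a2, Hnf4a and Nr1h3 named whatever their values, and further markers were named after their values were seen. The 54 genes of the list were 15 genes of synthesis and conjugation, 14 regulators, 19 transport genes and 6 genes of sulfation and detoxification, most of which enter the counts only. Correlations between genes used 100000 permutations within groups, without slide or array weights. Promoter windows of GRCm38.p6 came from RefSeq and were not joined to the mm9 positions. Exon positions of probes were not examined.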

Additional observations from a re-analysis of the deposited data

Results flagged for a closer look

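Over 14 probes in 4 groups, 56 sets of 6 arrays were examined for a single array far from the others, and 6 sets held one, where chance gives about 1 in 20. The sets reuse the same 24 arrays, and 3 of the 6 are from LKO_Fasted replicate 4. They are not independent, so the count does not show an excess over chance. LKO_Fasted replicate 4 was the lowest of its group for Cyp8b1 at 11.66, with the next array at 12.84, and for both probes of Cyp7b1 at 13.82 and 10.97, with the next at 15.30 and 12.57. LWT_Fasted replicate 2 was the highest of its group for Abcg5 at 14.31 and for the other probe of Slc10a1 at 15.65, with the next at 13.82 and 15.27. LWT_Fasted replicate 4 was the highest of its group for the other probe of Nr1h4, at 10.59 against 10.29.

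The difference between the fasting changes of the genotypes (LKO less LWT) passed in limma for Cyp27a1 (-0.59), Abcg5 (-0.97) and Abcg8 (-0.82), and among the other bile acid genes the 4 largest that passed were -1.52 for Slco1a4, -0.91 for Akr1d1, -0.72 for Scarb1 and -0.70 for Slc9a3r1. Of the 11 that passed, 6 were higher in LKO, among them Abcb4 (0.58), Acot8 (0.52) and Klb (0.40).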

How the results depend on the processing

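The 19 values of the 10 genes that passed kept their direction under the other signals, scalings, filters, weights, slide terms, array sets and the authors' matrix, and 236 of 244 such values still passed, as did 446 of 456 with 1 array left out. Within single slides, with 2 arrays a group, they kept their direction and 23 of 57 passed. Of 396 values that had not passed, 16 passed under those settings and 21 changed sign without passing, and 2 of 93 passed within single slides.

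For genotype in fed mice, where none of the 10 genes passed, 1 passed (Slc10a1 under the 75th percentile scalings and by its other probe, otherwise Abcg8) under normexp, either 75th percentile scaling, no slide term, slide as a random block, only the groups compared, the authors' values, without arrays of low weight (added after seeing the data) and with Slc10a1 by its other probe (added likewise), and 0 to 1 with 1 array left out. A minimum of 1.5-fold left 1 of the 10 genes for genotype in fasted mice, and of the other bile acid genes 14 for fasting in LWT, 15 for fasting in LKO, 3 for genotype in fed mice, 5 for genotype in fasted mice and 4 for the difference between fasting changes. With only the groups compared, the other genes numbered 5 in fed and 14 in fasted mice, and without the filter on dim probes 14 in fasted mice and 7 for the difference. With 1 array left out they numbered 4 to 8 in fed mice. The cause of these shifts was not tested.

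Directions reversed for Slc10a1 by its other probe, to -0.33 and -0.48 for fasting in LWT and LKO and -0.31 and -0.46 for genotype in fed and fasted mice. Within slide 1 they reversed for Slc10a2 in fasted mice (0.12), Slco1a4 for fasting in LKO (0.34) and for genotype in fasted mice (0.34), and Klb for fasting in LWT (-0.14).

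Samples with the same replicate number did not deviate together (r of -0.28 to 0.21 over 36 pairs, median -0.02), so the numbers do not pair them. With the replicate number as a block, 7 of the 10 genes passed for fasting in LKO in place of 6, Abcg5 being added at -0.28 (limma adjusted p = 0.0360), and the counts for the other comparisons were unchanged at 6, 0, 4 and 3. Among the other bile acid genes named, the block ended the calls of Slco1a4 for fasting in LKO (-0.47) and of Klb for fasting in LWT (0.20) and genotype in fasted mice (0.25), and added Fgfr4 for genotype in fed mice (0.30).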
